A study of Coryphaena hippurus with 27 samples.

Results

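Endocrine miRNAs of the miR-375 and miR-7 families were followed in developing mahi-mahi (Coryphaena hippurus), a fast-growing pelagic fish, after exposure to Deepwater Horizon oil. The rows were chosen by name, with earlier results of these data known: every row of the count tables named miR-375 or miR-7, with any letter, copy number or arm. The rule gave 25 names, 5 of miR-375 and 20 of miR-7, out of 1449 names in all. Whole embryos or larvae were sequenced as small RNA at 24, 48 and 96 hours post fertilisation (hpf), in seawater without oil (control, 0 g/l), with slick oil or with source oil, both labelled 1 g/l. Slick oil is weathered oil from the sea surface and source oil is oil from the well, each given as a dilution of a high-energy water accommodated fraction in filtered seawater. All groups came from wild-caught broodstock that spawned without induction and were held in static beakers at 27 °C. Each of the 9 groups had 3 libraries, numbered 1 to 3 at 24 hpf, 4 to 6 at 48 hpf and 7 to 9 at 96 hpf, and each library pooled 30 animals. The labels do not say whether the pools of a group came from separate spawns, so p-values measure the spread between pools, which may be partly technical.

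A miRNA is cut from a hairpin as a pair of strands, the 5p and the 3p arm, and 1 arm usually enters the silencing complex while the other is degraded. For miR-375 the working arm is the 3p arm, and for miR-7 it is the 5p arm. In zebrafish miR-375 is needed for intact pancreatic islets, and in mice it restrains insulin secretion and sustains the endocrine cell balance of the islet. It is also found in the pituitary and in secretory epithelia. miR-7 is enriched in pancreatic endocrine cells, hypothalamus and pituitary of vertebrates, and in the mouse brain it is bound by the circular RNA Cdr1as. These roles are background from other species and were not measured here. In RNA from whole animals, fewer cells of a type and less RNA per cell cannot be told apart.

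Library totals lay between 51925 and 93055 counts, with 893 to 1005 names detected, and no name exceeded 771 counts in a library. At 24 hpf the source libraries (51925 to 56616) were smaller than the controls (62229 to 75306), with slick libraries at 62473 to 68221. At 96 hpf the libraries of both oils (86977 to 93055) were larger than the controls (63162 to 75228). Levels and fold changes are scaled across these unequal totals. The sources used here do not say whether a count is a read or a distinct sequence, and every level, ratio and fold change below is in these counts. miR-375 had 144 to 305 counts a library and miR-7 had 108 to 211, while no name outside the abundant ones exceeded 36 counts, and SD and SE include this counting error. Levels are given as normalised counts per 70000 on 1 scale for all 27 libraries. Fold changes come from the fit of each comparison with its own scaling. For miR-375, miR-375b-3p and miR-7, log2 ratios of the printed levels differed from the fitted values by 0.002 to 0.037 at 24 hpf, by -0.012 to 0.014 at 48 hpf and by -0.054 to -0.034 at 96 hpf. Log2 fold changes are ± SE, levels ± SD with n = 3, and adjusted p-values come from edgeR's quasi-likelihood test over all names tested, with a threshold of 0.05.

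Many of the 25 names repeat each other. They held 19 distinct count profiles. miR-7a-2-3p and miR-7a-6-3p carried the same count in every library, as did miR-7a-5p and miR-7b, and miR-7-1-3p, miR-7-3p and miR-7a-1-3p. miR-375 stood at 95.3 to 99.5% of miR-375-3p in each library, while miR-375a-3p stood at 72.2 to 84.7% and miR-375b-3p at 46.6 to 70.8%. The names miR-7, miR-7a, miR-7a-5p, miR-7b and miR-7c ranged from 87.4 to 107% of miR-7-5p. Names within such a group are therefore not separate evidence, and the counting rule that split sequences between them is not given in the sources used here. miR-375-5p, the passenger arm, had 1 count over all 27 libraries. Of the 25 names, 14 passed the filter on low counts in at least 1 oil comparison, 12 in all 6 and 11 in none. The 11 were miR-375-5p, miR-7b-5p with 1 to 10 counts a library, and 9 names of the miR-7 3p arm with at most 8 counts.

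In control animals miR-375 names fell from 24 to 48 hpf and again to 96 hpf, while miR-7 5p names rose from 48 to 96 hpf alone. No miR-7 3p name was tested between control stages. From 24 to 48 hpf 4 of 10 tested names changed, all 4 of them miR-375 names and all lower, against 45.3% of all names called and 22.1% lower. From 48 to 96 hpf 9 of 10 changed, against 58.7% of all names (29.5% higher and 29.2% lower): the same 4 miR-375 names fell, and 5 names of the miR-7 5p arm rose. Control miR-375 read 234.1, 262.1 and 268.2 at 24 hpf, 206.7, 215.999 and 225.8 at 48 hpf, and 166.8, 179.2 and 164.6 at 96 hpf. No control library of a later stage reached the lowest of the stage before it. The fitted log2 fold changes were -0.29 ± 0.07 (adjusted p = 0.00112) for the first interval and -0.32 ± 0.08 (adjusted p = 9.42e-04) for the second. Control miR-7 read 144.3, 138.2 and 162.2 at 24 hpf, 156.3, 153.8 and 147.997 at 48 hpf, and 192.3, 201.2 and 184.4 at 96 hpf. The first 2 stages overlapped and every 96 hpf library was higher than they were. Its log2 fold change was -0.01 ± 0.09 (adjusted p = 0.962) from 24 to 48 hpf and 0.35 ± 0.07 (adjusted p = 3.13e-04) from 48 to 96 hpf. miR-7d-5p, a scarce 5p name, did not pass in either interval (-0.14 ± 0.33 from 48 to 96 hpf, adjusted p = 0.743). As a ratio within each library, miR-375 to miR-7 lay between 1.62 and 1.90 in the 24 hpf controls, between 1.32 and 1.53 at 48 hpf and between 0.867 and 0.892 at 96 hpf.

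**Figure D1:**
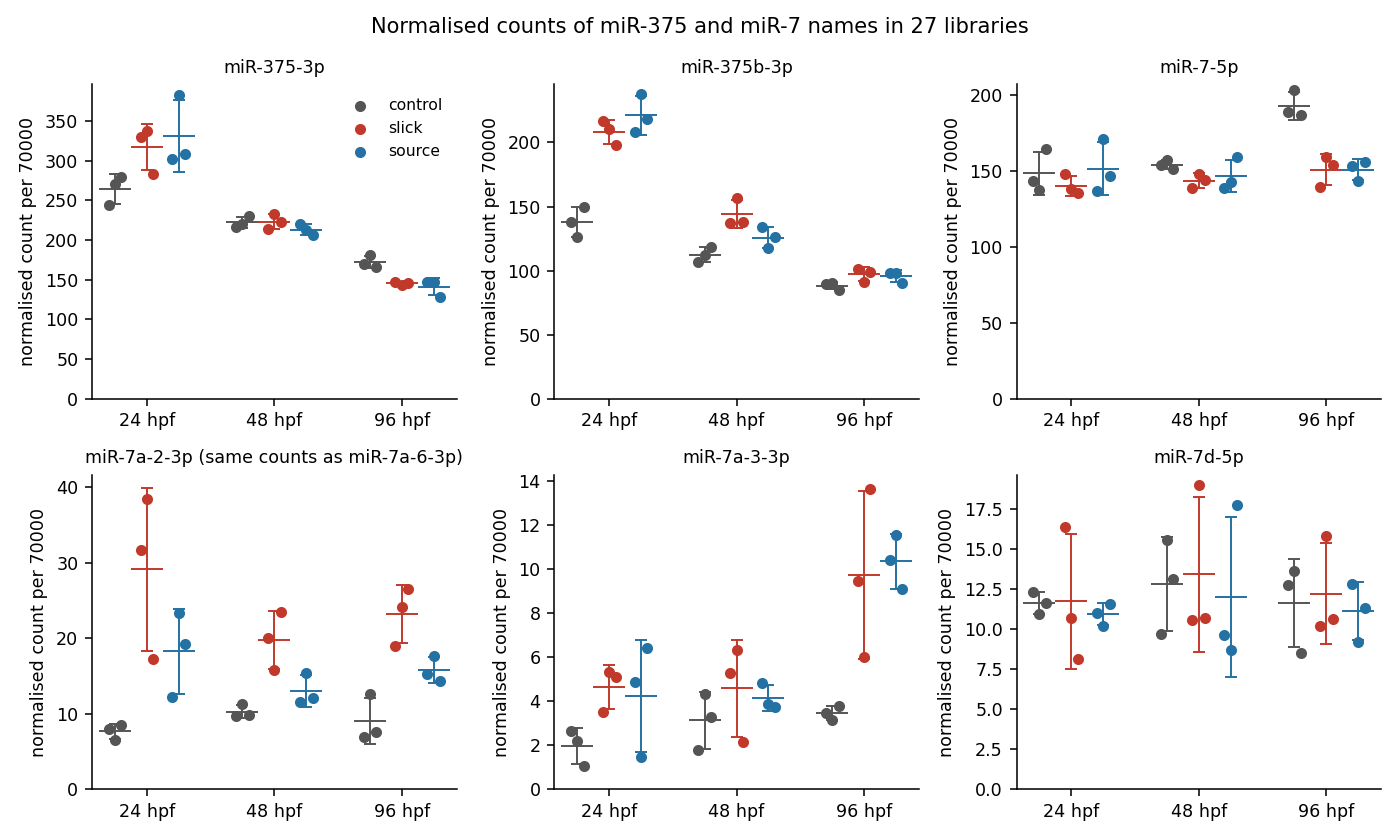
Normalised counts per 70000 (y axis) of 6 names in each library by stage (x axis, hpf) and group; points are libraries, horizontal marks are means and bars are SD (n = 3). miR-375-3p declined with stage, miR-7-5p was highest in the 96 hpf controls, and miR-7a-2-3p was higher in the oil libraries than in the controls of the same stage.

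On the normalised scale the response of miR-375 to oil was small and differed in sign between the first and the last stage. At 24 hpf miR-375 read 315.0, 325.6 and 272.4 under slick oil and 289.7, 374.7 and 301.9 under source oil, against 234.1, 262.1 and 268.2 in controls. All oil libraries lay above all controls, and source library 2 was the highest. The log2 fold change was 0.25 ± 0.09 for slick oil (adjusted p = 0.0395) and 0.31 ± 0.08 for source oil (adjusted p = 0.0128). At 48 hpf the values were 211.3, 227.2 and 215.5 under slick oil and 215.4, 207.3 and 199.8 under source oil, inside or beside the control range of 206.7 to 225.8. Neither passed (0.01 ± 0.08, adjusted p = 0.965 and -0.05 ± 0.08, adjusted p = 0.723), and the 95% intervals ran from -0.15 to 0.16 and from -0.21 to 0.11. At 96 hpf miR-375 read 142.7, 140.2 and 144.7 under slick oil and 146.9, 139.9 and 127.8 under source oil, against 164.6 to 179.2 in controls. Here every oil library lay below every control (-0.22 ± 0.08, adjusted p = 0.0232, and -0.25 ± 0.09, adjusted p = 0.0151).

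These calls on miR-375 depended on single libraries. Under slick oil at 24 hpf the call was lost without control 1 (log2 fold change 0.19, adjusted p = 0.182), control 2 (adjusted p = 0.0591), control 3 (0.0571), slick 1 (0.061) or slick 2 (0.173). Under source oil at 24 hpf it was lost without control 1 (0.22, adjusted p = 0.128) or source 2 (0.22, adjusted p = 0.0514). At 96 hpf the slick call was lost without control 8 (adjusted p = 0.0882), slick 7 (0.0549) or slick 8 (0.0556), and the source call without control 8 (0.0569) or source 9 (0.104). DESeq2 called none of these 4 results (adjusted p = 0.15 and 0.12 at 24 hpf, 0.0723 and 0.0679 at 96 hpf), and the authors' deposited table gave miR-375 an adjusted p of 0.127 and 0.0961 at 24 hpf and of 0.0406 and 0.0386 at 96 hpf, for slick and source oil in that order. With the trend of fold change over abundance removed, the 24 hpf values were 0.16 (adjusted p = 0.0637) for slick and 0.18 (adjusted p = 0.0517) for source oil, and the slick value at 96 hpf was -0.15 (adjusted p = 0.129). At 24 hpf names with a mean count from 100 to 300, where miR-375 lies, more often passed as higher than as lower, 27.9 against 8.72% under slick oil and 29.9 against 3.39% under source oil.

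miR-375b-3p, a variant name of the working arm, rose at 24 hpf with larger fold changes than miR-375, and no oil comparison called it lower. The difference in fold change between the names was not tested. At 24 hpf it read 216.7, 210.3 and 198.2 under slick oil and 207.8, 237.6 and 218.4 under source oil, against 138.2, 126.1 and 149.5 in controls. The lowest oil library stood clear of the highest control. Its log2 fold change was 0.59 ± 0.09 for slick oil (adjusted p = 4.58e-04) and 0.65 ± 0.09 for source oil (adjusted p = 1.28e-04). In the authors' deposited table its adjusted p was 0.00147 and 7.12e-04 at 24 hpf, and 0.0524 under slick oil at 48 hpf, past the threshold at 24 hpf alone. At 48 hpf it read 137.4, 156.4 and 137.6 under slick oil, 133.7, 117.6 and 126.1 under source oil, and 106.9, 112.3 and 118.4 in controls. The slick libraries were all above the controls (0.35 ± 0.10, adjusted p = 0.00369), while the lowest source library fell inside the control range (0.17 ± 0.10, adjusted p = 0.253). Without control 4 the slick value was 0.28 with adjusted p = 0.0571, and DESeq2 gave 0.059. At 96 hpf it read 101, 91.2 and 99.3 under slick oil, 97.9, 98.4 and 90.0 under source oil, and 89.2, 90.1 and 85.1 in controls. Neither oil passed there (0.18 ± 0.11, adjusted p = 0.179 and 0.17 ± 0.12, adjusted p = 0.228), though slick oil did among names with a mean count of at least 50 (0.26, adjusted p = 0.0415).

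Because both names are counted in the same library, their ratio needs no scaling. miR-375b-3p amounted to 48.1 to 59.0% of miR-375 in the 9 control libraries, with stage means of 54.3% ± 5.59, 52.0% ± 0.351 and 51.8% ± 1.60. Under slick oil the means were 68.7% ± 4.10, 65.9% ± 2.57 and 68.2% ± 2.92 at 24, 48 and 96 hpf. Under source oil they were 69.1% ± 4.97, 60.6% ± 3.44 and 69.1% ± 2.11. At each stage every oil library was above every control, and 17 of 18 oil libraries exceeded the highest control of any stage. The exception was 1 source library at 48 hpf, at 56.7%. This ratio was chosen after the values were seen and is given without a test. Across stages the share stayed raised while the normalised level of miR-375 itself went from above to below control.

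The 5p arm of miR-7 gave no call before 96 hpf. At 24 hpf miR-7 read 139.4, 137.7 and 139.3 under slick oil and 132.0, 176.4 and 143.9 under source oil, overlapping the controls at 138.2 to 162.2. The log2 fold change was -0.10 ± 0.10 (adjusted p = 0.458) and -0.01 ± 0.10 (adjusted p = 0.942), with 95% intervals from -0.31 to 0.11 and from -0.23 to 0.20. At 48 hpf it read 147.9, 137.4 and 139.7 under slick oil and 139.4, 139.8 and 149.4 under source oil, against 156.3, 153.8 and 147.997 in controls. The slick libraries lay just under the controls, but the difference did not pass (-0.12 ± 0.10, adjusted p = 0.318), nor did that of source oil (-0.09 ± 0.09, adjusted p = 0.548). At 96 hpf, where controls read 192.3, 201.2 and 184.4, miR-7 stood at 137.6, 159.0 and 154.6 under slick oil and at 154.1, 141.5 and 154.2 under source oil. No oil library came near the lowest control. It fell by 0.32 ± 0.08 on the log2 scale under slick oil (adjusted p = 4.13e-04) and by 0.31 ± 0.08 under source oil (adjusted p = 0.00126). The oil means at 96 hpf, 150.4 and 149.9, lay beside the 48 hpf control mean of 152.7, a likeness across stages that was not tested. For miR-375 the 96 hpf oil means (142.5 and 138.2) lay further from the 48 hpf controls (216.2) than the 96 hpf controls did (170.2). The other 5p names miR-7-5p, miR-7a, miR-7a-5p, miR-7b and miR-7c fell with miR-7, by 0.28 to 0.32 in the slick fit and by 0.28 to 0.31 in the source fit. miR-7d-5p, with 7 to 21 counts a library, did not pass in any of the 5 oil comparisons that tested it.

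At 96 hpf abundant names went both ways, around a median below 0. The median log2 fold change of names with a mean count of at least 100 was -0.14 under slick oil and -0.13 under source oil, beside -0.01 and 0.03 over all names tested. Among names with a mean count from 100 to 300, where miR-7 and miR-375 lie, 43.6% fell and 27.4% rose under slick oil, and 31.9% fell and 23.1% rose under source oil. Once that trend was taken out, the calls of miR-375b-3p at 24 hpf and of miR-7 at 96 hpf still passed for both oils.

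**Figure D2:**
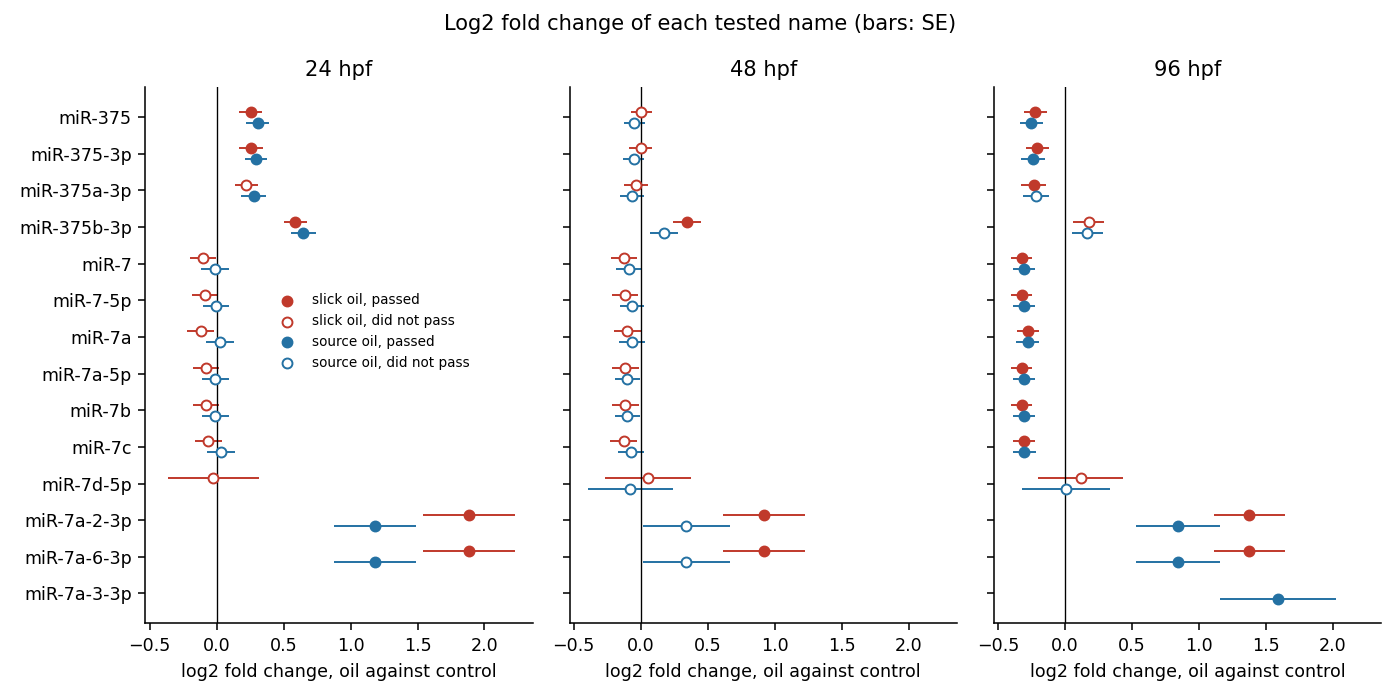
Log2 fold change of oil against control (x axis) for the 14 tested names (y axis) at 24, 48 and 96 hpf; bars are SE, filled points passed the threshold of 0.05 and open points did not. miR-375 names lie right of 0 at 24 hpf and left of it at 96 hpf except miR-375b-3p, and 6 of 7 miR-7 5p names pass at 96 hpf, miR-7d-5p being the exception.

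Of the scarce 3p names of miR-7, 1 count profile was tested in every oil comparison and passed as higher in 5 of 6. This name, miR-7a-2-3p, with the same counts as miR-7a-6-3p, is named for the complementary strand of a miR-7a hairpin; 9 other 3p names were tested in no comparison, and the difference between the arms was not tested. Its counts were 6 to 13 in control libraries and 10 to 36 in oil libraries, so each value rests on few counts. It passed the filter on low counts through the oil group in each comparison but source oil at 48 hpf: the 3 oil libraries reached the limit, and 0 or 1 control library did. A name kept in this way tends to differ. Its calls were also read without the filter, where the same 5 passed (adjusted p from 4.41e-08 to 0.0375). That fit uses the same counts, so it is no separate evidence. For slick oil at 24 hpf it gave the lowest adjusted p, 4.41e-08 against 0.0027 with the filter, at nearly the same fold change (1.883). At 24 hpf the level was 31.6, 38.4 and 17.3 under slick oil and 12.2, 23.3 and 19.3 under source oil, against 7.92, 6.58 and 8.48 in controls. Slick library 3 was the lowest of its group and still exceeded every control. The log2 fold change was 1.88 ± 0.35 for slick oil (adjusted p = 0.0027) and 1.18 ± 0.31 for source oil (adjusted p = 0.00891). At 48 hpf it read 20.1, 15.9 and 23.5 under slick oil, 11.5, 15.4 and 12.1 under source oil, and 9.72, 11.2 and 9.87 in controls. Slick oil passed (0.92 ± 0.31, adjusted p = 0.00972) and source oil did not (0.34 ± 0.33, adjusted p = 0.528, 95% interval -0.33 to 1.01). At 96 hpf it read 18.9, 24.1 and 26.5 under slick oil and 15.2, 17.7 and 14.4 under source oil, with controls at 6.95, 12.6 and 7.57. Both passed, with 1.38 ± 0.27 (adjusted p = 2.69e-05) and 0.85 ± 0.32 (adjusted p = 0.0214).

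The slick calls at 24 and 96 hpf were kept under each alternative that tested the name. Under source oil at 24 hpf the call was lost without control 1 (adjusted p = 0.0576) or source 2 (0.0551). DESeq2 called 1 member in that comparison, and it was not this name. Under slick oil at 48 hpf it was lost without control 4 (0.0502) or slick 6 (0.0736), with DESeq2 (0.0844) and in the authors' deposited table (log2 fold change 0.60, adjusted p = 0.0802). Under source oil at 96 hpf it was lost without control 7 (0.0989), control 9 (0.104) or source 8 (0.0887), with DESeq2 (0.163), with the trend over abundance removed (log2 fold change 0.46, adjusted p = 0.254) and in the authors' deposited table (0.51, adjusted p = 0.13), which gave no adjusted p for source oil at 24 hpf. Names as scarce as this one, with a mean count from 10 to 30, moved as follows: 14.0% rose under slick oil at 24 hpf and their median log2 fold change was -0.16, whereas at 96 hpf 37.5% rose under slick oil (median 0.27) and 32.1% under source oil (median 0.41).

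Other 3p names of miR-7 were scarcer still. miR-7a-3-3p had 3, 3 and 4 counts in the 96 hpf controls, 13, 8 and 18 under slick oil and 13, 15 and 12 under source oil. Its levels there were 3.47, 3.14 and 3.78 in controls, 9.46, 6.03 and 13.6 under slick oil and 10.4, 11.5 and 9.07 under source oil, without overlap. It was tested only against source oil at that stage, where it passed the filter through the oil group (log2 fold change 1.59 ± 0.44, adjusted p = 0.00167). The authors' deposited table tested it against both oils and gave adjusted p = 0.0382 for slick and 0.0221 for source oil. The 3 names led by miR-7-1-3p had counts of 0, 1 and 1 in the 96 hpf controls, 4, 3 and 8 under slick oil and 5, 7 and 6 under source oil. They failed the filter here, and the authors' deposited table gave miR-7-1-3p adjusted p = 0.0958 for slick and 0.0386 for source oil at that stage, and at 24 and 48 hpf no library had more than 2 counts of them.

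As a share of miR-7a-5p, a row that repeats miR-7b and cannot be assigned to the same hairpin, miR-7a-2-3p separated the oil from the control libraries. It amounted to 3.61 to 7.47% of miR-7a-5p in the 9 controls and to 8.33 to 28.8% in the 18 oil libraries, without overlap. The means at 24, 48 and 96 hpf were 5.31% ± 0.472, 6.85% ± 0.539 and 4.65% ± 1.40 in controls. Slick oil gave 21.3% ± 8.11, 14.2% ± 2.86 and 15.4% ± 1.71, and source oil gave 12.3% ± 2.49, 9.38% ± 1.67 and 10.6% ± 1.70. The slick mean was above the source mean at each stage, with overlap between the oils at 24 hpf. At 96 hpf miR-7a-5p was itself lower, by 0.32 under slick and 0.31 under source oil on the log2 scale, which raises the share there. The 3p row had 6 to 13 counts in controls and entered the test through the oil group in each comparison but source oil at 48 hpf. Like the share of miR-375b-3p, this ratio was formed after the values were seen and carries no test.

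**Figure D3:**
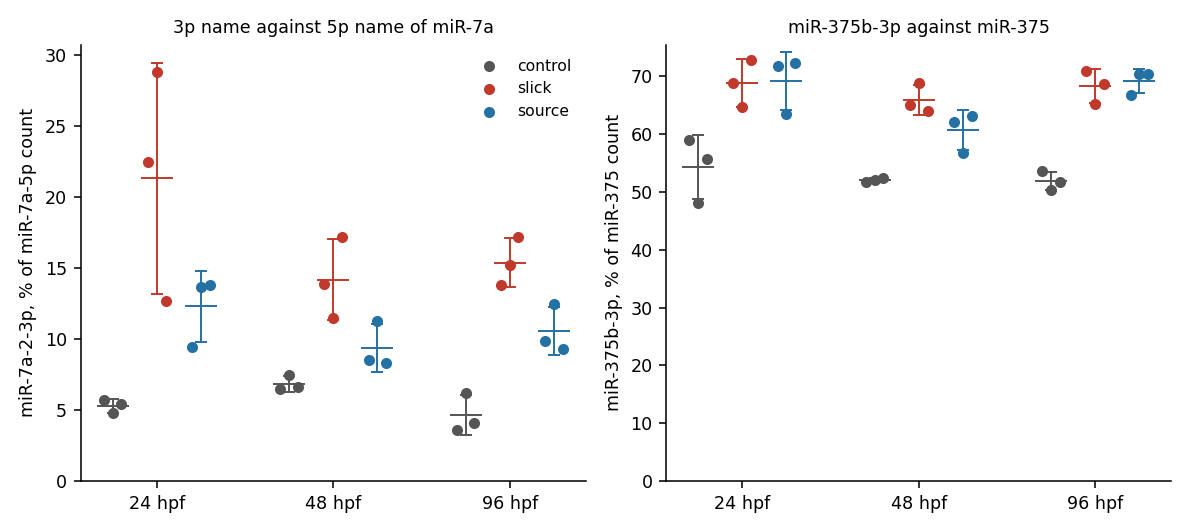
Count of miR-7a-2-3p as a percentage of miR-7a-5p (left) and of miR-375b-3p as a percentage of miR-375 (right) in each library, by stage (x axis, hpf) and group; points are libraries, marks are means and bars are SD (n = 3). Oil libraries lie above the controls of their stage in both panels.

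The counts of calls over all member names are given beside the share of all names called in each comparison. At 24 hpf 5 of 13 tested names rose under slick oil and none fell, against 38.6% of all names called in either direction, 21.3% higher and 17.4% lower. The total called was near that share, and 2 of the 5 were miR-7a-2-3p and its duplicate miR-7a-6-3p. Under source oil 6 of 12 rose, the same 2 names among them, against 26.3% in either direction, 14.2% higher and 12.2% lower. At 48 hpf 3 of 13 rose under slick oil (background 40.8%, with 19.5% higher and 21.3% lower), and 0 of 13 were called under source oil by edgeR or by DESeq2 (background 19.4%, with 10.1% lower); none of those 13 had an unadjusted p under 0.05. At 96 hpf 11 of 13 were called under slick oil, 2 higher and 9 lower, against 60.1% of all names (32.5% higher and 27.6% lower). Source oil gave 11 of 14, 3 higher and 8 lower, against 48% (28.3% higher and 19.7% lower). In the 6 comparisons 0, 2 or 3 of the names called were miR-7 3p names, which entered the test through the oil group. Since the names repeat each other, these counts stand for fewer miRNAs than they list. Both oils share the controls of their stage, so their values side by side are not independent.

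**Figure D4:**
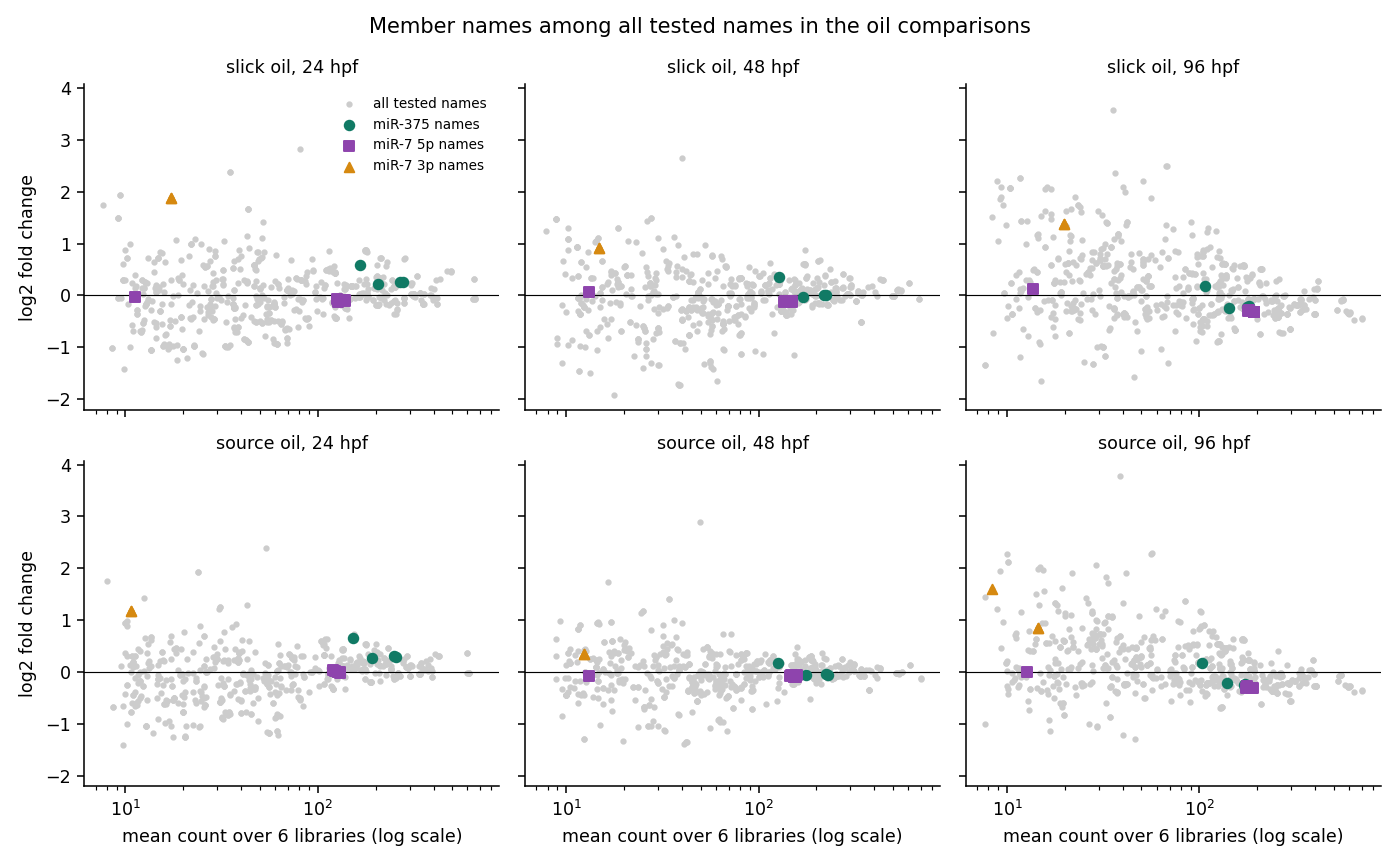
Log2 fold change of oil against control (y axis) against mean count over 6 libraries (x axis, log scale) for all tested names (grey) with miR-375, miR-7 5p and miR-7 3p names marked, in the 6 oil comparisons. At 96 hpf the abundant names scatter to both sides of 0 around a median below it and the abundant members lie among them, while miR-7 3p names lie high among scarce names at 24 hpf.

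Slick and source oil were compared directly in 1 fit of the 9 libraries of each stage. None of 13, 12 and 13 tested names passed at 24, 48 and 96 hpf, against 1.16, 5.49 and 4.63% of all names. miR-7a-2-3p was higher under slick oil at each stage, by 0.70 ± 0.29, 0.59 ± 0.28 and 0.56 ± 0.23 on the log2 scale, with unadjusted p of 0.0308, 0.0424 and 0.0161 and adjusted p of 0.343, 0.247 and 0.153 in edgeR's quasi-likelihood test. It and its duplicate miR-7a-6-3p were the only members with an unadjusted p under 0.05, and the pair was called at 24 hpf once slick 3 was left out (adjusted p = 0.0448). DESeq2 called no member in these comparisons. For miR-375 the 95% intervals of slick against source were -0.26 to 0.15, -0.10 to 0.23 and -0.11 to 0.23, and for miR-7 they were -0.32 to 0.14, -0.22 to 0.18 and -0.15 to 0.18. miR-375b-3p came nearest among the miR-375 names at 48 hpf, with slick libraries all above source libraries (0.19 ± 0.10, adjusted p = 0.319).

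Whether an oil effect differed between stages was tested in 1 fit per oil over 18 libraries. All 4 abundant miR-375 names passed for each oil, and none of the 8 other tested names did, against 36.1% of all names for slick and 20.1% for source oil. miR-375 had adjusted p = 0.00114 for slick and 0.00425 for source oil, and miR-375b-3p had 0.0165 and 0.00582. For the miR-7 5p arm the test missed the threshold, with miR-7 at 0.0643 and 0.0734. miR-7a-2-3p gave 0.20 and 0.41, so its rise was not shown to differ between stages. With the trend over abundance removed, miR-375 gave 0.126 for slick oil and 0 of the 4 names passed, and 2 of 4 passed for source oil. Leaving out 1 library moved the number of members called between 2 and 9 for slick oil and between 3 and 9 for source oil. miR-375b-3p lost its slick call without control 1 (adjusted p = 0.128), slick 7 (0.0599) or slick 9 (0.0794), and miR-7 gained one without any of several libraries, among them control 6 (0.0107) and slick 6 (0.0124). The slick call of miR-375b-3p was also lost with DESeq2 (adjusted p = 0.126) and with library size alone (0.225).

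Ordered by mean level over the 9 groups, miR-375 was highest under source oil at 24 hpf (322 ± 45.9), then slick oil (304 ± 28.2) and control (255 ± 18.2) of that stage. The 48 hpf groups followed between 207.5 and 218 and were not distinguished, then the 96 hpf control (170.2 ± 7.85), slick oil (142.5 ± 2.28) and source oil (138 ± 9.67), the last pair not differing beyond its spread. miR-7 was highest in the 96 hpf controls (193 ± 8.36), and its other 8 groups lay between means of 138.8 and 152.7, where neighbours overlapped. Over the 9 group means, among 329 names with a mean count of at least 50, the names of other numbers closest to miR-375-3p by Pearson correlation of log2 levels were miR-196 (0.995), miR-430a (0.976), miR-10d-5p (0.958), miR-206 (0.958) and miR-200b-3p (0.957). miR-196 lies in Hox clusters, miR-430 clears maternal mRNA in zebrafish and miR-206 is a muscle miRNA. For miR-7-5p they were miR-96 (0.951), miR-126a (0.891), let-7g (0.875), miR-140-5p (0.866) and miR-183 (0.858). The groups share stage and controls, and the correlations are descriptions of 9 points.

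Other miRNAs of tissues in which the families are known were read from lists by number. Names within a list also repeat each other. For example, miR-216 and miR-216-5p had the same means at 24 hpf, 11.7 in controls and 5.76 under slick oil. The counts, percentages and sums of the lists are therefore over names and stand for fewer separate miRNAs. The exocrine pancreas list holds miR-216 and miR-217, with 9 to 10 of 13 names tested per oil comparison. Under slick oil 0, 1 and 3 of these rose and 3, 5 and 5 fell at 24, 48 and 96 hpf, and under source oil 2, 3 and 2 rose and 1, 4 and 4 fell. Lower names were 33.3, 50 and 50% of those tested under slick oil, against 17.4, 21.3 and 27.6% of all names. Under source oil they were 11.1, 40 and 40%, against 12.2, 10.1 and 19.7%. Higher names were 0, 10 and 30% under slick oil, against 21.3, 19.5 and 32.5% of all names. Under source oil they were 22.2, 30 and 20%, against 14.2% at 24 hpf and 28.3% at 96 hpf. Under source oil at 48 hpf 126 of 651 names were called, 66 of them lower. The 30% higher there thus stood above the 19.4% of all names called in either direction. The median log2 fold change of the list was -0.006, -0.082 and -0.221 under slick oil and -0.064, 0.054 and -0.146 under source oil. miR-216a, an acinar miRNA, had the largest absolute fold change of the called names and fell in each of the 6. Its mean level was 26.4 in controls and 11.1 under slick oil at 24 hpf (log2 fold change -1.25 ± 0.24, adjusted p = 0.00318). At 96 hpf it was 63.2 in controls and 24.9 under source oil (-1.30 ± 0.16, adjusted p = 3.40e-10). The summed level of the list ranged from 817 to 902 in the 96 hpf controls, from 718 to 830 under slick oil and from 719.7 to 790.4 under source oil.

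The list of islet and beta cell miRNAs other than the 2 families (miR-24, miR-26, miR-29, miR-30, miR-148, miR-184 and miR-204) went both ways at 24 hpf. Of 58 names tested under slick oil 16 rose (27.6%, against 21.3% of all names) and 10 fell (17.2%, against 17.4%), with a median log2 fold change of 0.12. Of 57 under source oil 14 rose (24.6%, against 14.2%) and 4 fell (7.02%, against 12.2%), with a median of 0.17. The medians stood beside -0.03 and -0.01 over all names. Its summed level at 24 hpf was 6374 to 6681 in controls, 7285 to 8365 under slick oil and 7060 to 8279 under source oil, without overlap. Among all names with a mean count from 100 to 300 at that stage, 27.9% rose and 8.72% fell under slick oil. Under source oil 29.9% rose and 3.39% fell. At 96 hpf 16 of 58 names of the list rose (27.6%, against 32.5% of all names) and 18 fell (31%, against 27.6%) under slick oil. Under source oil 14 of 61 rose (23%, against 28.3%) and 11 fell (18%, against 19.7%). The summed level at 48 hpf was 6357 to 6457 in controls, 6674 to 6865 under slick oil and 6252 to 6371 under source oil. At 96 hpf it was 6345 to 6733, 6087 to 6345 and 6121 to 6300 in that order. These miRNAs are expressed in many tissues, and their part in the change of miR-375 was not tested.

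Neuronal and epithelial lists, whose tissues also hold miR-7 and miR-375, had lower summed levels under oil at 96 hpf, with names called in both directions. The summed level of the gut and liver list was lower there too, though its median log2 fold change was 0.316 under slick and 0.321 under source oil. Summed levels are on the scale of all 27 libraries and weigh abundant names most. Names with a mean count of at least 100 had a median log2 fold change of -0.14 and -0.13 at that stage. Lower sums are therefore not shown to be particular to these lists. The neuronal list holds miR-9, miR-124, miR-128, miR-137 and miR-153. Of its 67 tested names 6 rose (8.96%, against 32.5% of all names) and 23 fell (34.3%, against 27.6%) under slick oil at 96 hpf. Under source oil 3 rose (4.48%, against 28.3%) and 18 fell (26.9%, against 19.7%). Their summed level was 9436 to 10373 in controls, 7581 to 7768 under slick oil and 7828 to 8378 under source oil. At 24 hpf 18 of 54 neuronal names fell (33.3%, against 17.4% of all names) and 1 rose (1.85%, against 21.3%) under slick oil. Under source oil 19 of 53 fell (35.8%, against 12.2%) and 1 rose (1.89%, against 14.2%). miR-7 did not pass at that stage. At 48 hpf 25 of 62 neuronal names fell under slick oil (40.3%, against 21.3%) and 7 of 65 under source oil (10.8%, against 10.1%). Each oil had 3 higher, 4.84% under slick oil (against 19.5%) and 4.62% under source oil. The secretory and sensory epithelium list holds miR-96, miR-141, miR-182, miR-183, miR-200 and miR-429. Of its 24 names tested at 96 hpf 5 rose (20.8%, against 32.5% of all names) and 12 fell (50%, against 27.6%) under slick oil. Under source oil 5 rose (20.8%, against 28.3%) and 7 fell (29.2%, against 19.7%). Its summed level there was 4107 to 4375 in controls, against 3479 to 3656 under slick and 3645 to 3879 under source oil. At 24 and 48 hpf 1 to 4 names of that list moved in each direction, 4 to 16% of those tested. Over all names 10.1 to 21.3% fell in those comparisons. At 24 hpf, and under slick oil at 48 hpf, 14.2 to 21.3% of all names rose. The gut and liver list holds miR-122, miR-192, miR-194 and miR-215. It had 10 of 20 names higher with each oil at 96 hpf, 50% against 32.5% of all names for slick and 28.3% for source oil. Lower names were 8 under slick oil (40%, against 27.6%) and 6 under source oil (30%, against 19.7%). Before that the list had 4 lower (26.7%, against 17.4%) and 1 higher (6.67%, against 21.3%) under slick oil at 24 hpf. None was called in the other 3 comparisons. Of all names 26.3% were called for source oil at 24 hpf, and 40.8 and 19.4% for slick and source oil at 48 hpf. The summed level of this list at 96 hpf was 2330 to 2416 in controls, 1929 to 1982 under slick oil and 2124 to 2169 under source oil. miR-671, which cleaves Cdr1as in mammals, had no name among the 1449 names, so nothing can be said of it here. The part of these cell types in the fall of miR-7 and miR-375 was not tested.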

How the data were processed

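Small RNA libraries were made with the NEBNext small RNA kit from pooled animals, per the labels' protocols. The deposited counts are unscaled whole numbers per miRNA name, in 1 table per oil and stage, and slick and source tables repeat the same controls. The deposited result tables give, per the file headers, the authors' log2 fold changes with p-values and adjusted p-values, and the submitters' processing notes name DESeq2. How reads were aligned and counted, and against which miRNA reference, is not given in the sources used here.

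Tests were run with edgeR 4.0.16 (R 4.3.3): filterByExpr with min.count 10, TMM scaling, quasi-likelihood F test, two-sided, Benjamini-Hochberg adjustment, threshold 0.05. Oil was compared with control within its table, in 6 libraries. Slick against source used 9 libraries, control stages 9 and the effect by stage 18. The SE was taken from the test's p and degrees of freedom, and intervals are 95%. Fits across tables left out names with unequal control counts in the slick and source tables (38, 28 and 40 names at 24, 48 and 96 hpf), among them miR-7a at 48 and 96 hpf, and set names absent from a table to 0. In the levels, control counts came from the slick tables. The test was checked on simulated independent counts with a common spread for all names, which does not show its error rate in these libraries.

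Alternatives were DESeq2 1.42.0, DESeq2 size factors, library size alone, no filter, a mean count of at least 50, a trend over abundance removed with limma 3.58.1, a block for replicate number, merging of identical names, 1 fit of all 27 libraries, omission of each library in turn and the authors' tables. Averaging closely agreeing replicates (slick 1 and 2, source 1 and 3 at 24 hpf, control 4 and 5 at 48 hpf) was added after the data were seen. Over the 27 replicate pairs chi-square per degree of freedom lay between 0.479 and 1.87, and 2.02 to 8.48% of names had identical counts. A value below 1 means that a pair agreed more closely than independent counts of reads would. All slick pairs at 48 hpf were so, at 0.479 to 0.566. The reason was not tested, and the values do not show that the libraries are independent. Every library was kept as a replicate in the reported values. Same-numbered libraries deviated together in all 3 pairs, with correlations of 0.14, 0.175 and 0.149, for slick oil against control at 96 hpf alone, where the block changed no call of a lead name. By the rule for named miRNAs, the lead and other tested rows of both families, the 5 names most alike and at most 3 called names a list are given, and the text names some of these. Members, lists and ratios were chosen with earlier results of these data known.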

Additional observations from a re-analysis of the deposited data

Results flagged for a closer look

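Effects that differed between stages were found for the 4 abundant miR-375 names with each oil, by the joint test of treatment and stage in edgeR over 18 libraries. Under slick oil the adjusted p was 0.00114 for miR-375, 0.00115 for miR-375-3p, 0.00197 for miR-375a-3p and 0.0165 for miR-375b-3p. DESeq2 did not call miR-375b-3p there (adjusted p = 0.126), and with the trend over abundance removed 0 members passed. Under source oil it was 0.00425 for both miR-375 and miR-375-3p, 0.00721 for miR-375a-3p and 0.00582 for miR-375b-3p. Whether the names share reads is not known, so they are not taken as 4 separate results. Groups of 3 libraries are too small for the search for single outlying samples.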

How the results depend on the processing

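The number of members called changed as follows. Under slick oil at 24 hpf it went from 5 to 3 with DESeq2, DESeq2 size factors, library size alone, the trend over abundance removed, the replicate block, the authors' table and closely agreeing replicates averaged, and to 3 to 6 with 1 library left out. Under source oil at 24 hpf it went from 6 to 1 with DESeq2 and the authors' table and to 3 with the trend removed or a mean count of at least 50 (1 to 6 with a library left out; 1 without control 1 or source 2). Under slick oil at 48 hpf it went from 3 to 0 with DESeq2 and the authors' table and to 1 with a mean count of at least 50 (0 to 3; 0 without control 4, 1 without slick 6). At 96 hpf it went from 11 to 7 with a mean count of at least 50 under slick oil (7 to 12; 7 without slick 7), and under source oil to 7 with DESeq2 and 6 with a mean count of at least 50 (9 to 12). Slick against source at 24 hpf gave 0 to 2, with 2 without slick 3. The effect by stage under slick oil went from 4 to 2 with library size alone, 8 without a filter and 0 with the trend removed (2 to 9; 2 without control 1), and under source oil from 4 to 9 with DESeq2 size factors and 2 with the trend removed (3 to 9; 9 without control 3). A mean count of at least 50 leaves the scarce 3p names out by construction. It also ended the calls of miR-375, miR-375-3p and miR-375a-3p under slick oil at 96 hpf (adjusted p = 0.162, 0.207 and 0.173) and made 1 of miR-375b-3p (0.0415), and it ended those of miR-375 (0.0593) and miR-375-3p (0.0745) under source oil at 96 hpf and of miR-375a-3p (0.0728) under source oil at 24 hpf. The cause of these changes was not tested. The fit of all 27 libraries shifted the fold changes of all names at 96 hpf by a median of -0.10 (slick) and -0.10 (source) and ended none of the calls it tested again.

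The replicate block left 3 members called under slick oil at 24 hpf, where miR-375 had adjusted p = 0.0627. The libraries there share only a number, and in the other oil comparisons the block kept the count within 1.5 times.

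Signs turned only where neither setting made a call: of 1808 fold changes of 12 names under alternatives, 132 had the opposite sign and 0 of these passed under either setting. Of these, the names followed in every comparison were miR-375, miR-375b-3p, miR-7 and miR-7a-2-3p, a choice made after the turned signs were seen. miR-375 under slick oil at 48 hpf (0.0051) was -0.0095 with DESeq2, -0.0078 with its size factors, -0.0071 with library size alone, -0.0618 with the trend removed, -0.0188 with a mean count of at least 50, -0.0085 with replicates averaged and -0.0597 without control 4. miR-7 under source oil at 24 hpf (-0.0129) was 0.0031 without a filter, 0.004 in the authors' table and 0.0387 with replicates averaged. In controls from 24 to 48 hpf miR-7 was 0.0126 with the trend removed. With 1 library left out, the ranges that crossed 0 were -0.0597 to 0.0352 for miR-375 under slick oil at 48 hpf and -0.1626 to 0.0391 for slick against source at 24 hpf. For miR-7 they were -0.1094 to 0.0687 under source oil at 24 hpf, -0.0559 to 0.0618 in controls from 24 to 48 hpf, and -0.2024 to 0.0097, -0.0511 to 0.022 and -0.0178 to 0.0802 for slick against source at 24, 48 and 96 hpf.

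Precision is limited by 3 pools per group and, for miR-7a-2-3p, by counts of 6 to 36, and the names are not independent.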
